A study of Mus musculus with 12 samples.

Results

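Gap43 and 9 other genes of immature neuron growth were examined in the olfactory epithelium of mice given clodronate or empty liposomes and then a bulbectomy or a sham operation. The 10 genes were chosen by symbol or alias in the platform annotation: Gap43, Gng8, Dpysl3, Dpysl5, Crmp1, Stmn1, Stmn2, Stmn4, Dcx and Tubb3. They were represented by 18 of the 45101 probe sets, with 1 probe set for each of 5 genes and several for each of the other 5. All 18 probe sets passed the filter on dim signals, and all 10 genes were among the 13628 genes tested.

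The epithelium was microdissected from wild-type male C57BL/6J mice aged 6 weeks, and each of 12 single-colour Affymetrix arrays held 1 biological replicate, with 3 in each of 4 groups. Lip-C mice received clodronate liposomes, a treatment meant to deplete macrophages, in 3 daily intranasal doses of 50 µl and in intravenous doses of 200 µl on the first and the third of those days. Lip-O mice received empty liposomes by the same routes, so no group was free of liposomes. Bilateral olfactory bulbectomy (OBX), which cuts the axons of olfactory sensory neurons, or a sham operation fell on the second day, and tissue was taken 48 h after it. The groups are therefore Lip-O sham, Lip-O OBX, Lip-C sham and Lip-C OBX, and the crossed design asks how the response to axotomy depends on macrophages. The sources used here do not say whether an array held RNA of several mice, and the tests describe the spread between these samples.

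Immature olfactory sensory neurons arise from dividing basal precursors and extend an axon to the olfactory bulb before they mature. Growing axons use membrane proteins of the growth cone such as GAP43, proteins of the collapsin response mediator family that bind tubulin, stathmins that bind and release tubulin dimers, and microtubule proteins such as doublecortin and the neuronal beta-tubulin of class III. In the olfactory epithelium Gap43 and Gng8 mark immature neurons, whereas Omp, the olfactory marker protein, marks mature ones.

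Of the 10 genes, 5 differed between OBX and sham mice when the change was averaged over both liposome treatments, where 32.7% of all genes were called, and they did so in opposite directions. Gng8, Dpysl3 and Stmn1 rose, and Dcx and Tubb3 fell. Gap43 itself did not pass the test. No member passed it in a comparison of Lip-C with Lip-O mice on the brightest probe set, which stood for the gene, whereas Dpysl3 did on its dimmer probe sets. Values are array signals (linear intensity), and changes are differences of log2(signal + 16) with standard errors from a limma fit of all genes. Adjusted p-values are by the Benjamini-Hochberg method over the 13628 genes, with a threshold of 0.05.

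RefSeq promoter sequences (GRCm38.p6) were matched for 5 members. The 250 bases before the start are shown for Gng8, which rose after OBX, for Dcx and Tubb3, which fell, and for Dpysl5, which passed the test in no comparison. Each reads 5′ to 3′ on the strand of its gene, and capitals mark matches to the motifs searched.
Gng8, chr7:16891536-16891785, plus strand: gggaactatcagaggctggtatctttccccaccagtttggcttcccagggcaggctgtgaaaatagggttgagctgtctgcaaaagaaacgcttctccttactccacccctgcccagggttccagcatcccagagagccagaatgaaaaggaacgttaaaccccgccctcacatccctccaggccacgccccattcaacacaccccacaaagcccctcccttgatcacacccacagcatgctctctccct
Dpysl5, chr5:30711314-30711563, plus strand: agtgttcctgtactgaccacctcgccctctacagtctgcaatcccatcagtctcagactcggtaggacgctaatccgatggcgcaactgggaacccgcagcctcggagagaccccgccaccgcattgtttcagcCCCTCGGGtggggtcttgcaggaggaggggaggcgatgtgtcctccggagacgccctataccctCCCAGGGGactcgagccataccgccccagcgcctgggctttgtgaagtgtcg
Dcx, chrX:143933220-143933469, minus strand: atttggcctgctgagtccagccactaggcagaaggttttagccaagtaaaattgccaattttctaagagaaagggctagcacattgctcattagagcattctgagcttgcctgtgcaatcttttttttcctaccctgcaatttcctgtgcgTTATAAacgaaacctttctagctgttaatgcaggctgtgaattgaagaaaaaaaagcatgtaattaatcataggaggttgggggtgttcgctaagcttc
Tubb3, chr8:123411303-123411552, plus strand: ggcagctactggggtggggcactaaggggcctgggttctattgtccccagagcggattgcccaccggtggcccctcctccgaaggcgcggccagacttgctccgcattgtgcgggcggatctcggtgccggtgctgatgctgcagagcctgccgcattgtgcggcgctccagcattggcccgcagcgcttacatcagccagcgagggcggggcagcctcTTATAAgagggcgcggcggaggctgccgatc

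The motifs were searched on both strands and chosen with the sequences in view. They were CCCNNGGG, a form of the site of Olf/EBF factors, CAGATG and CAGCTG, which are E-boxes, and TATAA. Dcx and Tubb3 each held TTATAA, where TATAA is matched on both strands with the matches overlapping. It began 99 bases before the start of Dcx and 31 bases before the start of Tubb3. Where several starts were listed for a gene, as for Dcx, only the most upstream was used. TATAA was present in 22.78% of 32851 promoters of the same length. Dpysl5 held CCCNNGGG beginning 116 and 52 bases before its start, a motif found in 11.82% of promoters. The Gng8 window held no match to any of the 4 motifs. CAGATG was present in 14.44% of promoters and CAGCTG in 13%, and neither was in any of the 5 matched members. GC content was 41.6% for Dcx, 56.0% for Gng8, 62.8% for Dpysl5 and 68.0% for Tubb3. These matches describe the letters of each window only.

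Gap43 encodes a membrane protein of the growth cone. Its signals in Lip-O sham mice were 3539.6, 4455 and 3503, and in Lip-O OBX mice 5077, 5660.2 and 3415. In Lip-C sham mice they were 3166, 4167 and 3104, and in Lip-C OBX mice 4171, 5074 and 4812. The Lip-C OBX arrays lay above all Lip-C sham arrays, the nearest values being 4171 and 4167. In Lip-O mice the groups overlapped because replicate 3 after OBX, at 3415, was below every sham array. Group means ran in the order Lip-O OBX (4717 ± 1165, SD, n = 3), Lip-C OBX (4686 ± 464), Lip-O sham (3832 ± 539) and Lip-C sham (3479 ± 597), and every neighbouring pair overlapped.

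Gap43 signal differed by 0.28 ± 0.19 on the log2 scale with OBX in Lip-O mice (limma, adjusted p = 0.3395) and by 0.44 ± 0.19 in Lip-C mice (adjusted p = 0.1284). Averaged over both treatments the difference was 0.36 ± 0.13, a 1.28-fold change, with a 95% interval from 0.06 to 0.65 and an adjusted p of 0.06458. An exact two-sided permutation test of this difference, relabeling arrays within each liposome treatment, gave an unadjusted p of 0.045. Gap43 passed with a filter at the 60th percentile (adjusted p = 0.04799) and with an intensity trend in the variance (adjusted p = 0.03952). It also passed in limma with a block for replicate number (adjusted p = 0.02078), although arrays of the same number were not treated as pairs. In fits that left out 1 array, Gap43 passed in 2 of 12. Without Lip-O OBX replicate 3 the averaged difference was 0.46 (adjusted p = 0.009993), and without Lip-C sham replicate 2 it was 0.42 (adjusted p = 0.04397). Gap43 did not pass without any other array. The difference was smallest without Lip-O OBX replicate 2, at 0.28 (limma, adjusted p = 0.1379). Lip-C and Lip-O mice differed in Gap43 by -0.14 after the sham operation (95% interval -0.56 to 0.28) and by 0.02 after OBX (-0.40 to 0.44).

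Gng8 encodes a G protein gamma subunit found in immature olfactory neurons. Its signals were 1303.5, 1687 and 1217 in Lip-O sham mice, and 1974, 1982.5 and 1497 in Lip-O OBX mice. They were 1108.5, 1337 and 1194 in Lip-C sham mice, and 1233, 1756.5 and 1552.5 in Lip-C OBX mice. OBX means lay above sham means in both treatments, but a single OBX array reached into the sham range each time. Gng8 rose by 0.34 ± 0.12 with OBX over both treatments (limma, adjusted p = 0.04914), a 1.26-fold change. The call is close to the threshold. It was kept when Lip-O sham replicate 2, Lip-C OBX replicate 1 or Lip-O OBX replicate 3 was left out. It was lost without any other single array, with an adjusted p of up to 0.1107 by limma when Lip-C OBX replicate 2 was left out. The change was also not called in 5 other settings, with adjusted p-values from 0.05011 when probe sets were averaged to 0.07656 with no filter on dim probe sets.

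Other G protein subunits, of the alpha, beta and gamma kinds, moved both ways. Of 9 tested, 3 rose and 3 fell with OBX in Lip-O mice, where 19.6% of all genes were called. In Lip-C mice 3 rose and 2 fell, where 19.2% were called. Gnb1, the beta subunit of mature olfactory neurons, fell by 0.60 ± 0.09 in Lip-O mice (adjusted p = 0.002722) and by 0.49 ± 0.09 in Lip-C mice (adjusted p = 0.008199). Gng13, the gamma subunit of mature olfactory cilia, fell by 0.83 ± 0.14 in Lip-O mice (adjusted p = 0.004226) and differed by -0.44 ± 0.14 in Lip-C mice (adjusted p = 0.05085). Gnb2, another beta subunit, rose by 0.47 ± 0.08 in Lip-O mice (adjusted p = 0.005186) and by 0.33 ± 0.08 in Lip-C mice (adjusted p = 0.02465). Gnao1, which encodes the alpha subunit of type o, differed by -0.01 ± 0.10 in Lip-O mice and fell by 0.63 ± 0.10 in Lip-C mice (adjusted p = 0.005113). The interaction for Gnao1 did not pass the test (-0.62, adjusted p = 0.09094).

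**Figure D1:**
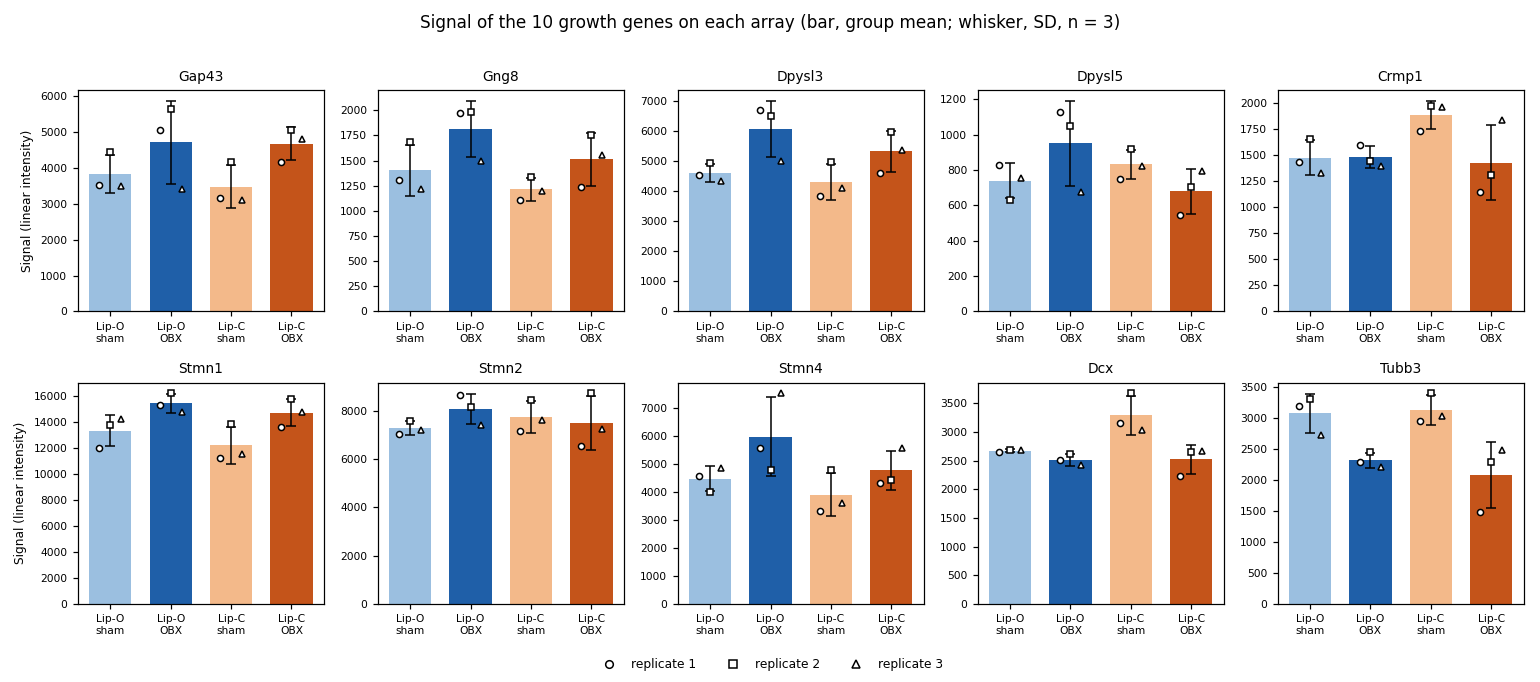
Signals of the 10 genes on the 12 arrays (y axis, linear intensity), 1 panel per gene, with the 4 groups along the x axis. Bars are group means, whiskers SD (n = 3) and symbols the replicates. OBX means exceed sham means for Gap43, Gng8, Dpysl3, Stmn1 and Stmn4 in both treatments, and lie below them for Dcx and Tubb3.

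Dpysl3 encodes a collapsin response mediator protein of growing axons. On its brightest probe set (1454613_at) the signals were 4546, 4953 and 4346 in Lip-O sham mice, and 6721, 6520.1 and 5015 in Lip-O OBX mice, with no overlap. They were 3829, 4969 and 4112 in Lip-C sham mice, and 4625, 5990.3 and 5378 in Lip-C OBX mice, where 1 sham array exceeded 1 OBX array. Dpysl3 rose by 0.35 ± 0.10 over both treatments (limma, adjusted p = 0.02338), a 1.27-fold change. The call was kept in 6 of 12 fits that left out 1 array. It was lost without Lip-O sham replicate 3, Lip-O OBX replicate 1 or 2, Lip-C sham replicate 1 or 3, or Lip-C OBX replicate 2, with adjusted p-values from 0.05117 to 0.05695.

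The probe sets of Dpysl3 did not show 1 pattern. On 1415877_at the signals were 1836, 2295 and 1855 in Lip-O sham, 2222, 2378 and 1721 in Lip-O OBX, 1304, 1377 and 1305 in Lip-C sham, and 1703, 1986 and 1805 in Lip-C OBX mice. The Lip-C sham arrays lay below all others. Fitted on its own and adjusted over 28986 probe sets, 1415877_at fell by 0.57 ± 0.13 with Lip-C in sham mice (adjusted p = 0.0368) and rose by 0.46 ± 0.13 with OBX in Lip-C mice (adjusted p = 0.04541). On 1438789_s_at the drop with Lip-C in sham mice was -0.81 ± 0.19 (adjusted p = 0.04156), and the OBX difference in Lip-C mice was 0.64 ± 0.19 (adjusted p = 0.05217). The brightest probe set differed by -0.11 ± 0.14 with Lip-C in sham mice. With OBX in Lip-O mice 1415877_at differed by 0.07 ± 0.13 and 1438789_s_at by -0.03 ± 0.19, against 0.39 ± 0.14 on the brightest. Over both treatments neither dimmer probe set passed with OBX. The differences were 0.26 (adjusted p = 0.05906) on 1415877_at and 0.31 (adjusted p = 0.1229) on 1438789_s_at. In these fits 5% of probe sets were called for Lip-C in sham mice and 13.1% for OBX in Lip-C mice.

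Fibroblast and matrix markers had their lowest summed signal in the same Lip-C sham arrays. Over 7 markers the sum ran from 20075 to 26545 in Lip-C sham mice, against 30940.2 to 56448 in Lip-O sham, 29935 to 52223 in Lip-O OBX and 33529.6 to 55028 in Lip-C OBX mice. None of the 7 was called for Lip-C in sham mice (median -0.84). Groups did not overlap for 4 of the 7 there, against 29.6% of all genes. With OBX in Lip-C mice 4 rose (median 0.87), where 19.2% of all genes were called. Fibroblasts were not alone in this. In Lip-C sham mice the summed markers of neuronal precursors (8087 to 9225), macrophages (3613.5 to 4332) and sustentacular cells (61654 to 63584) also lay below every array of the other groups. The part of any of these cell types in the Dpysl3 result was not tested.

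**Figure D2:**
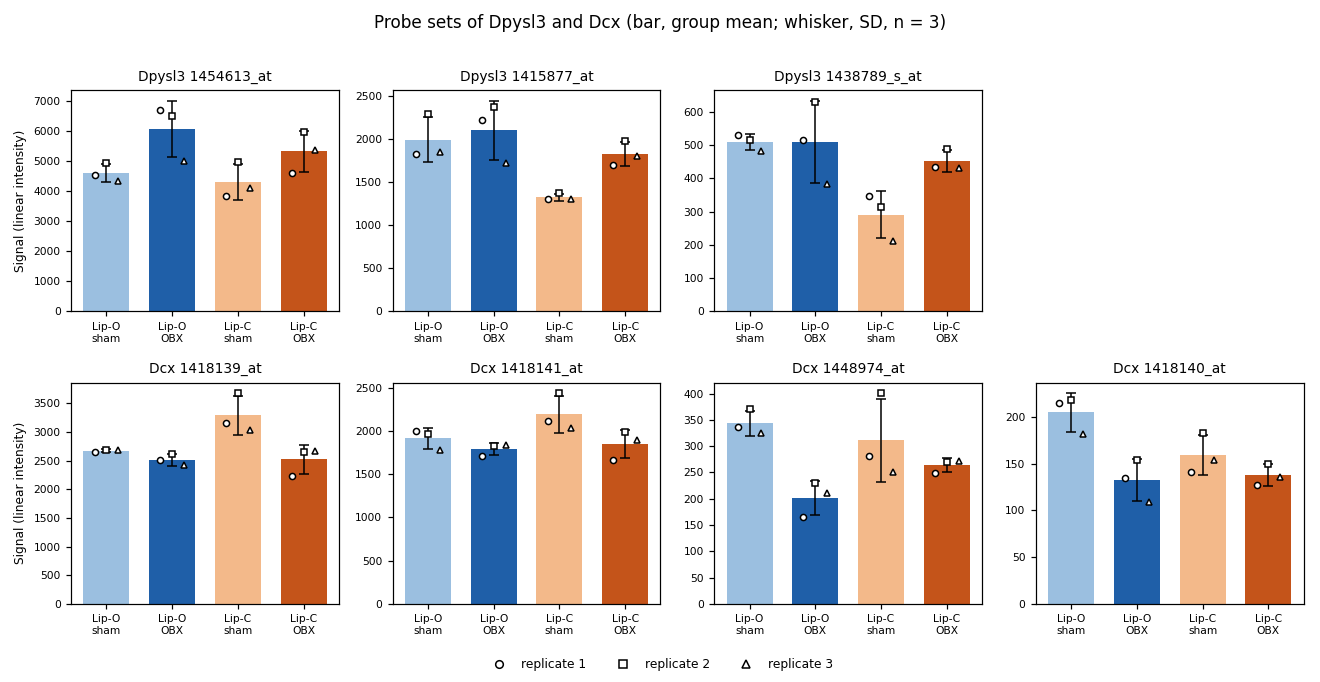
Signals of the 3 probe sets of Dpysl3 and the 4 probe sets of Dcx (y axis, linear intensity) in the 4 groups. Bars are group means, whiskers SD (n = 3) and symbols the replicates. Dpysl3 is lowest in Lip-C sham mice on 1415877_at and 1438789_s_at, and the dimmer Dcx probe sets 1448974_at and 1418140_at are lowest in Lip-O OBX mice.

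Dpysl5 and Crmp1 encode further proteins of the same family and did not pass the test in any comparison. Dpysl5 signals were 828, 632 and 754.5 in Lip-O sham, 1129, 1048 and 677 in Lip-O OBX, 750, 918 and 825 in Lip-C sham, and 544, 703 and 795 in Lip-C OBX mice. Its OBX difference was 0.33 ± 0.20 in Lip-O mice and -0.29 ± 0.20 in Lip-C mice. The interaction of -0.63 ± 0.28 did not pass the test (adjusted p = 0.2771). A second, dim probe set (1441246_s_at, signals of 62.4 to 120.7) differed by -0.24 in Lip-O mice, so the Dpysl5 probe sets had opposite signs there.

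Crmp1 signals were 1439, 1661 and 1327.5 in Lip-O sham, 1601, 1449.5 and 1396 in Lip-O OBX, 1731, 1974 and 1960.5 in Lip-C sham, and 1143, 1307 and 1838 in Lip-C OBX mice. All Lip-C sham arrays exceeded all Lip-O sham arrays. That difference was 0.36 ± 0.16 (adjusted p = 0.2182), and the OBX difference in Lip-C mice was -0.43 ± 0.16 (adjusted p = 0.081). Lip-C OBX replicate 3, with a signal of 1838, was the highest of its group. Without it the OBX difference in Lip-C mice was -0.62 (adjusted p = 0.008204) and the difference over both treatments was -0.31 (adjusted p = 0.01612). Each passed in only this 1 of 12 fits that left out 1 array. Without Lip-C OBX replicate 1 they were -0.28 (limma, adjusted p = 0.2681) and -0.135 (adjusted p = 0.3579). In Lip-O mice the Crmp1 difference with OBX was 0.01 ± 0.16.

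Stmn1 encodes stathmin, which destabilises microtubules in growing neurons and also in dividing cells. On the brighter probe set its signals were 12006.5, 13786 and 14266 in Lip-O sham mice, and 15333, 16252 and 14781 in Lip-O OBX mice, with no overlap. They were 11256, 13845 and 11553 in Lip-C sham mice, and 13663, 15766.5 and 14756 in Lip-C OBX mice, where Lip-C sham replicate 2 exceeded 1 OBX array. Stmn1 rose by 0.24 ± 0.07 over both treatments (limma, adjusted p = 0.02729), a 1.18-fold change. The call was kept in 7 of 12 fits that left out 1 array and lost without Lip-O sham replicate 1, Lip-O OBX replicate 2, Lip-C sham replicate 1 or 3, or Lip-C OBX replicate 2 (adjusted p = 0.05957 to 0.06536). It was also lost after quantile normalization (0.20, adjusted p = 0.1108). The dimmer probe set differed by 0.36 ± 0.16 (adjusted p = 0.1284 over all probe sets).

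Markers of dividing cells moved in the same direction. Of 11 tested, 8 rose with OBX over both treatments, with a median of 0.60, where 19.2% of all genes rose. The treatments differed in the calls. In Lip-O mice 0 of the 11 were called (median 0.38), where 19.6% of all genes were called. In Lip-C mice 4 rose (median 0.82), where 19.2% of all genes were called. Over both treatments Mki67, a marker of proliferation, rose by 0.74 ± 0.23 (adjusted p = 0.02943). Summed signals of the 11 markers ran from 8515 to 11796 in Lip-O sham, 10454 to 14893 in Lip-O OBX, 8037 to 8533 in Lip-C sham and 10356 to 13461 in Lip-C OBX mice. Their part in the Stmn1 result was not tested.

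Stmn2 and Stmn4 encode neuronal stathmins, and neither passed the test. Stmn2 signals were 7035, 7596 and 7187 in Lip-O sham, 8665, 8163 and 7409 in Lip-O OBX, 7156, 8454 and 7622 in Lip-C sham, and 6528, 8737 and 7252 in Lip-C OBX mice. Its OBX difference over both treatments was 0.05 ± 0.08, with a 95% interval from -0.13 to 0.23. Within treatments it was 0.15 in Lip-O mice and -0.05 in Lip-C mice. A second Stmn2 probe set (1423281_at) had the opposite signs, -0.08 and 0.14. With Lip-C in sham mice 1423281_at differed by -0.24 (limma, adjusted p = 0.2568 over all probe sets), against 0.09 on the first. Stmn4 signals were 4565, 3995 and 4857 in Lip-O sham, 5563, 4792 and 7530.5 in Lip-O OBX, 3301, 4786 and 3618 in Lip-C sham, and 4316, 4414 and 5570.4 in Lip-C OBX mice. The difference for Stmn4 was 0.34 ± 0.13 over both treatments (adjusted p = 0.06723, exact permutation p = 0.04 unadjusted). Without Lip-O OBX replicate 2 it was 0.42 (adjusted p = 0.03897), and without Lip-C sham replicate 2 also 0.42 (adjusted p = 0.03486). Stmn4 passed in only these 2 of 12 fits that left out 1 array. The difference was 0.25 without Lip-O OBX replicate 3, and the adjusted p by limma reached 0.1375 without Lip-C sham replicate 1. Stmn4 was the only member highest in Lip-O OBX replicate 3, the array in which the other 9 members were lowest of their group.

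Dcx encodes doublecortin, a microtubule protein of migrating and young neurons, and it was lower after OBX. On the brightest probe set (1418139_at) the signals were 2646, 2686 and 2686 in Lip-O sham mice, and 2505.5, 2619.7 and 2420 in Lip-O OBX mice. They were 3159.5, 3681.5 and 3039 in Lip-C sham mice, and 2237, 2659 and 2667 in Lip-C OBX mice. The groups did not overlap in either treatment, and the Lip-C sham arrays were the highest of all. Dcx fell by 0.38 ± 0.09 with OBX in Lip-C mice (limma, adjusted p = 0.02136) and differed by -0.09 ± 0.09 in Lip-O mice (adjusted p = 0.5534). Over both treatments it fell by 0.24 ± 0.07 (adjusted p = 0.0215, exact permutation p = 0.005 unadjusted, the smallest that 400 relabelings can give). This call was kept whichever array was left out. The call in Lip-C mice was lost without Lip-C sham replicate 2 (-0.30, adjusted p = 0.07358) and without Lip-C OBX replicate 1 (-0.30, adjusted p = 0.0816). The interaction was -0.30 ± 0.13 (adjusted p = 0.2822), so a difference between treatments was not shown.

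All 4 Dcx probe sets were lower after OBX in both treatments, but they differed in where the drop was larger. On 1448974_at the signals were 336, 370.5 and 324 in Lip-O sham mice, and 165, 229 and 210.3 in Lip-O OBX mice. They were 282, 401 and 250.3 in Lip-C sham mice, and 249.7, 271 and 272 in Lip-C OBX mice. That probe set fell by 0.73 ± 0.16 in Lip-O mice (adjusted p = 0.01318 over all probe sets, of which 16.9% were called) and differed by -0.20 ± 0.16 in Lip-C mice (adjusted p = 0.4474). On 1418140_at the drop in Lip-O mice was -0.58 ± 0.13 (adjusted p = 0.01576), and the difference in Lip-C mice was -0.19 ± 0.13 (adjusted p = 0.3809). On 1418141_at the differences were -0.09 and -0.25, and neither passed. The direction of the Dcx change over both treatments did not depend on the probe set, while its size within a treatment did. When its probe sets were averaged, Dcx fell by 0.37 in Lip-O mice (adjusted p = 0.0333) and differed by -0.25 in Lip-C mice (adjusted p = 0.1215).

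Tubb3, the neuronal beta-tubulin of class III, was also lower after OBX. Its signals were 3196, 3318 and 2725 in Lip-O sham mice, and 2285, 2451.5 and 2216 in Lip-O OBX mice. They were 2950.5, 3408 and 3031 in Lip-C sham mice, and 1481, 2299 and 2485 in Lip-C OBX mice. Every OBX array lay below every sham array. Tubb3 fell by 0.61 ± 0.17 with OBX in Lip-C mice (limma, adjusted p = 0.03144), a 1.53-fold drop, and differed by -0.40 ± 0.17 in Lip-O mice (adjusted p = 0.1182). Over both treatments it fell by 0.51 ± 0.12 (adjusted p = 0.009075, exact permutation p = 0.005 unadjusted), and this call was kept whichever array was left out. The call in Lip-C mice was kept in 7 of 12 such fits. It was lost without any 1 of the Lip-C sham arrays, without Lip-C OBX replicate 1, where the drop was -0.38, and without Lip-C OBX replicate 2 (adjusted p = 0.05334 to 0.09986). Without Lip-C OBX replicate 1 the unchanged difference of -0.40 in Lip-O mice passed the test (adjusted p = 0.02049).

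Markers of mature olfactory sensory neurons were lower after OBX as well. Of 13 tested, 11 fell in Lip-O mice with a median of -0.85, where 8.89% of all genes fell, and 7 fell in Lip-C mice with a median of -0.58, where 8.86% fell. Omp fell by 1.01 ± 0.17 in Lip-O mice (adjusted p = 0.00399) and differed by -0.34 ± 0.17 in Lip-C mice (adjusted p = 0.1758). Summed signals of the 13 markers ran from 113890 to 129234 in Lip-O sham, 55727 to 91648 in Lip-O OBX, 121292 to 129665 in Lip-C sham and 81859 to 100600 in Lip-C OBX mice. Their part in the Dcx and Tubb3 results was not tested. In whole tissue, fewer cells of a type and less RNA per cell cannot be told apart.

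Counted by comparison, no member was called for OBX in Lip-O mice, where 19.6% of all genes were called. At an unadjusted p under 0.05 there were 3 of 10 members and 33.9% of all genes. There 8 members had a positive difference and 2 a negative one, with a median of 0.25 against 0.05 over all genes. Groups did not overlap for 4 members, Dpysl3 and Stmn1 higher and Dcx and Tubb3 lower, where 37.7% of all genes did not overlap. Leaving out Lip-O OBX replicate 3 raised the count of called members from 0 to 2, Dpysl3 (0.52, adjusted p = 0.02727) and Dpysl5 (0.56, adjusted p = 0.04535). In Lip-C mice 2 members were called with OBX, both lower, where 19.2% of all genes were called and 8.86% were lower. Signs were even at 5 and 5, and groups did not overlap for 3 members, Gap43 higher and Dcx and Tubb3 lower, against 40.2% of all genes. Over both treatments 3 members rose and 2 fell, a share of the 10 to be read against 32.7% of all genes called, 19.2% higher and 13.5% lower. The 10 members are too few to set their share apart from these backgrounds.

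**Figure D3:**
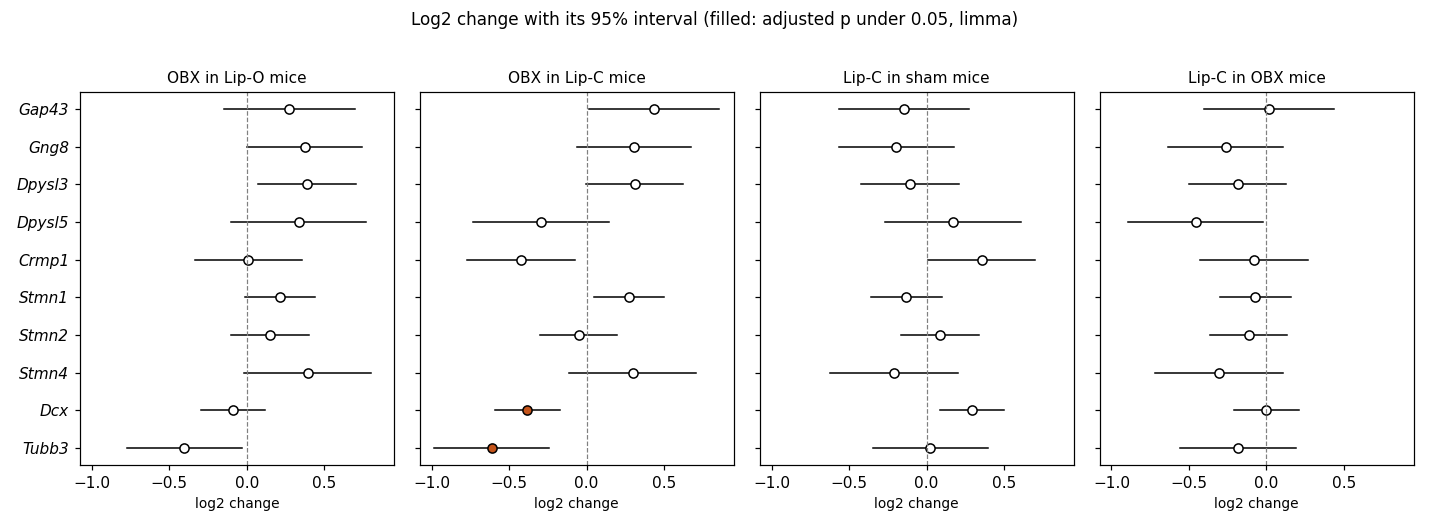
Log2 differences of the 10 genes (x axis, log2(signal + 16) scale) for OBX and for Lip-C within each level of the other treatment. Points are estimates, filled where the adjusted p was under 0.05, and bars are 95% intervals from limma. For OBX in Lip-C mice, intervals lie below 0 for Dcx, Tubb3 and Crmp1 and above 0 for Gap43 and Stmn1, and only Dcx and Tubb3 are filled. Those for Lip-C in OBX mice cover 0 for all genes but Dpysl5 (-0.89 to -0.02).

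On the probe sets that stood for the genes, limma called no member for Lip-C. In sham mice none of the 10 was called, where 2.1% of all genes were. At an unadjusted p under 0.05 there were 2 of 10 members and 21.9% of all genes. Crmp1 and Dcx were the members whose groups did not overlap, both higher with Lip-C, where 29.6% of all genes did not overlap and 16.2% did so with Lip-C higher. The Dcx difference was 0.30 ± 0.09 (adjusted p = 0.1116) on its brightest probe set, and it was negative on the dimmer probe sets 1448974_at (-0.16) and 1418140_at (-0.34). In OBX mice none was called, where 0.345% of all genes were. At an unadjusted p under 0.05 there were 1 of 10 members and 12.7% of all genes. There 9 of 10 differences were negative, with a median of -0.15 against 0.00 over all genes, and no member's groups stood apart, where 16% of all genes did. The most negative was Dpysl5 (-0.46 ± 0.20, adjusted p = 0.3698). Averaged over both operations, differences ran from -0.26 to 0.15 and none was called by limma, where 1.59% of all genes were. At an unadjusted p under 0.05 there were 0 of 10 members and 16.8% of all genes.

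The interaction asks whether the OBX difference depends on Lip-C. By limma none of the 10 members and 0% of all genes were called, while 2 of 10 members and 17.6% of all genes had an unadjusted p under 0.05. Those 2 members were Dpysl5 (-0.63 ± 0.28) and Dcx (-0.30 ± 0.13). The Dcx interaction had the opposite sign on the probe sets 1448974_at (0.54 ± 0.23) and 1418140_at (0.40 ± 0.19) and when its probe sets were averaged (0.12), so its direction depended on the probe set. For Gap43 the 95% interval ran from -0.43 to 0.76 and for Tubb3 from -0.74 to 0.32, so differences of that size between treatments could not be seen with 3 arrays a group.

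Members also varied together among replicates. Lip-C sham replicate 2 had the highest signal of its group for 10 of 10 members, while 36.5% of all genes were highest there. Lip-C OBX replicate 1 was the lowest of its group for 10 of 10, and Lip-O OBX replicate 3 for 9 of 10. The share of all genes lowest on those arrays was not computed. On Lip-C OBX replicate 1, 0 of 10 members and 50.1% of all genes lay above their group mean. On Lip-O OBX replicate 3 these were 1 of 10 members and 46.9% of all genes. The median deviation of the 10 members from their group means was 0.16 on Lip-C sham replicate 2, -0.19 on Lip-C OBX replicate 1 and -0.10 on Lip-O OBX replicate 3. Over all genes the median deviations lay between -0.01 and 0.02. Lip-O OBX replicate 3 and Lip-C OBX replicate 3 were the OBX arrays nearest to the sham arrays on the principal component with the largest variance.

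**Figure D4:**
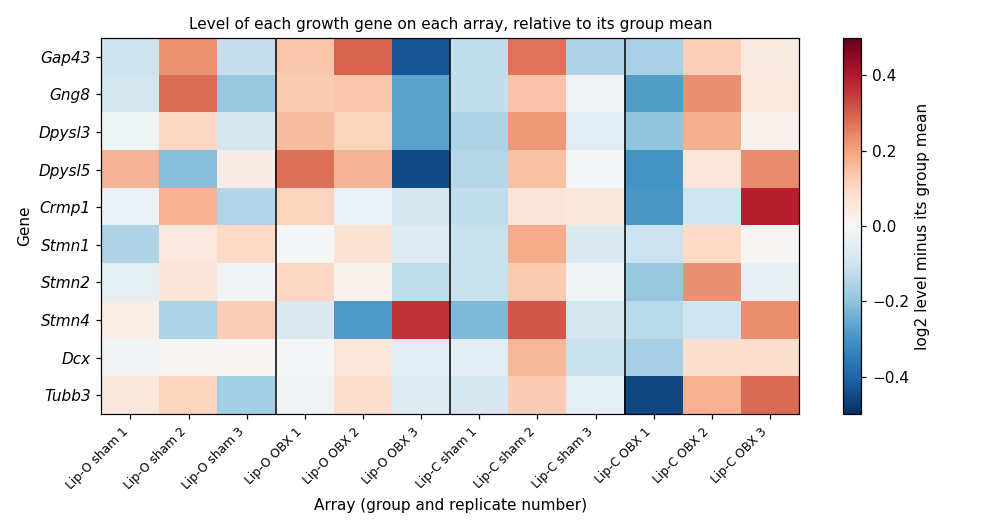
Heat map of the log2 level of each of the 10 genes (rows) on each of the 12 arrays (columns) minus the mean of its group, red above and blue below 0, with lines between groups. All 10 genes are above 0 on Lip-C sham replicate 2 and below 0 on Lip-C OBX replicate 1.

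Genes were ranked by their correlation with Gap43 over the 12 arrays, as a description. Arrays share the OBX and sham groups and the deviations between replicates. Nhlh1, a transcription factor of neuronal precursors, was the most similar of 13627 genes (r = 0.973). Its signals were 995, 1352 and 1053.5 in Lip-O sham mice, and 1736, 1913.5 and 1163 in Lip-O OBX mice. They were 909, 1209.9 and 825 in Lip-C sham mice, and 1213, 1691.5 and 1614.5 in Lip-C OBX mice. Nhlh1 was low on the same Lip-O OBX array as Gap43. It rose by 0.55 ± 0.15 with OBX over both treatments (limma, adjusted p = 0.02019). The next 7 were Ap1s2 (r = 0.954), Stap1, Dtl, Dock5, Ncapd2, Slc38a1 and Kif5c (r = 0.912).

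Among members, Dpysl3 ranked at position 9 of 13627 genes (r = 0.907), Gng8 at 28 (r = 0.867) and Stmn1 at 96 (r = 0.818). Stmn2 (r = 0.550), Dpysl5 (r = 0.330) and Stmn4 (r = 0.246) were less similar to Gap43. Crmp1 (r = -0.153), Dcx (r = -0.272) and Tubb3 (r = -0.287) were on the negative side. After the group means were removed, the deviations of Dcx (r = 0.694) and Tubb3 (r = 0.538) from their group means were positively correlated with those of Gap43, and Stmn4 was the only negative member (r = -0.313). Nhlh1 again ranked highest on deviations (r = 0.974), and Basp1, another membrane protein of the growth cone, had r = 0.953.

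**Figure D5:**
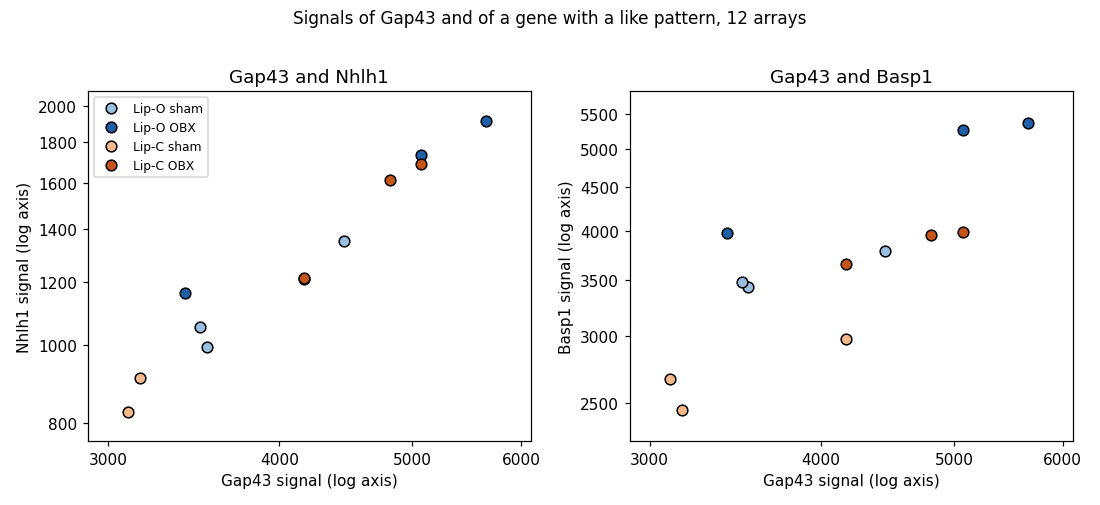
Signal of Nhlh1 and of Basp1 (y axes, log scale) against Gap43 (x axis, log scale) on the 12 arrays, coloured by group. Nhlh1 follows Gap43 across groups (r = 0.973), where a Lip-C sham point (Gap43 at 4167) and a Lip-C OBX point (4171) coincide. Basp1 follows it within groups (r = 0.953 for deviations from group means), with the Lip-C arrays lower at a given Gap43 signal.

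A further 35 genes of neurite growth were listed, of which 34 were tested. With OBX in Lip-O mice 11 rose and 3 fell, where 19.6% of all genes were called. In Lip-C mice 5 rose and 4 fell, where 19.2% of all genes were called. Over both treatments 9 rose and 8 fell, where 32.7% of all genes were called, with a median of 0.12 against 0.05 over all genes. Genes of the growth cone and microtubules were on both sides. Basp1 rose by 0.52 ± 0.12 with OBX in Lip-C mice (adjusted p = 0.0173). That call was kept in 10 of 12 fits that left out 1 array, and lost by limma without Lip-C sham replicate 3 (adjusted p = 0.05274) or Lip-C OBX replicate 2 (adjusted p = 0.06139). Over both treatments Basp1 rose by 0.48 ± 0.08 (adjusted p = 0.002347).

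Mapt, which encodes the microtubule protein tau, rose by 0.64 ± 0.11 over both treatments (adjusted p = 0.002034). Chl1, a cell adhesion molecule of axons, also rose by 0.64 ± 0.11 (adjusted p = 0.002069), and Fscn1, which bundles actin in filopodia, by 0.66 ± 0.10 (adjusted p = 0.0009823). Sox11, a transcription factor of immature neurons, rose by 0.47 ± 0.12 (adjusted p = 0.01631). Cnr1, a cannabinoid receptor, fell by 0.69 ± 0.09 (adjusted p = 0.0006485), Map6, a microtubule stabiliser, by 0.55 ± 0.11 (adjusted p = 0.003383), and Nsg1, a neuronal endosome protein, by 0.48 ± 0.10 (adjusted p = 0.005795). Each of these 7 and Basp1 kept its call over both treatments whichever array was left out. After quantile normalization, however, Map6 differed by -0.25 (adjusted p = 0.09841), and when its probe sets were averaged Nsg1 differed by -0.31 (adjusted p = 0.08297).

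Within single treatments, Cnr1 fell by 0.99 ± 0.13 with OBX in Lip-O mice (adjusted p = 0.00151), and Ablim1, an actin-binding protein, rose by 0.51 ± 0.11 (adjusted p = 0.0115). Both calls were kept whichever array was left out. In Lip-C mice Fscn1 rose by 0.88 ± 0.14 (adjusted p = 0.005229), kept in 12 of 12 such fits. With the mean of the probe sets, Ablim1 differed by 0.35 (adjusted p = 0.06827) in Lip-O mice and Fscn1 by 0.33 (adjusted p = 0.05431) in Lip-C mice.

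With Lip-C 1 of the 34 was called in sham mice, where 2.1% of all genes were, and 3 over both operations, where 1.59% were. All of these fell. In sham mice Elavl4, an RNA-binding protein of young neurons, fell by 0.54 ± 0.11 (adjusted p = 0.03851). The call was kept in 4 of 12 fits that left out 1 array, any Lip-O OBX array or Lip-C OBX replicate 3. It was lost without each of the others, with an adjusted p of up to 0.1284 by limma when Lip-O sham replicate 2 was left out. Over both operations Elavl4 fell by 0.55 ± 0.08 (adjusted p = 0.009126), kept in 12 of 12. Marcksl1 (-0.42, adjusted p = 0.0474) and the chemokine receptor gene Cxcr4 (-0.42, adjusted p = 0.0355) were also called over both operations, each kept in 1 of 12 such fits, that without Lip-O OBX replicate 3, and lost without any other array. In OBX mice none of the 34 was called by limma.

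Other cell types in the tissue were followed through marker lists. The 10 tested markers of neuronal precursors included Nhlh1 and Elavl4. With OBX 3 of them rose in Lip-O mice, where 19.6% of all genes were called, and 1 in Lip-C mice, where 19.2% were called. Over both treatments 6 rose, where 19.2% of all genes rose. With Lip-C 6 of these 10 fell in sham mice (median -0.52), where 2.1% of all genes were called, and 5 in OBX mice (median -0.66), where 0.345% were. Their part in the members' values was not tested. Markers of other cells also rose with OBX over both treatments, as Gng8, Dpysl3 and Stmn1 did: 8 of 10 for macrophages (median 0.76), 4 of 6 for ensheathing and Schwann cells (median 0.42) and 4 of 6 for horizontal basal cells (median 0.54), where 19.2% of all genes rose. Their part in the results of the members was not tested. With Lip-C 2 of the 10 macrophage markers fell in sham mice and limma called none in OBX mice. Of the sensory nerve genes listed, 3 were tested and limma called none for OBX in either treatment. Prph, an intermediate filament of peripheral neurons, had group means from 323 to 431, Tac1, the substance P precursor, from 74.7 to 181, and Nefh, a neurofilament gene, from 55.2 to 73.9. Trpv1, Scn10a and Nefm, which define nociceptive or large sensory neurons, did not pass the filter, with signals of at most 32.5, 32.8 and 26.8. Of 4 tested vomeronasal markers, 2 rose and 1 fell with OBX in Lip-C mice, and the same counts were called over both treatments. Meis2 rose by 0.70 in Lip-C mice (adjusted p = 0.00469). Gnai2 rose there as well, and Gnao1, given among the G protein subunits, fell. Trpc2, the channel that defines vomeronasal neurons, had group means from 165 to 239 and was not called.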

How the data were processed

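The deposited values were probe set intensity on a linear scale, which the authors had scaled to a trimmed mean (2%) of 500 per array. The sources used here do not name the algorithm that summarised probes. Groups and replicates came from the sample titles.

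Signals were converted to log2(signal + 16) without control probe sets. Probe sets above the 40th percentile of an array on 3 or more arrays were kept (28986), and the brightest of these on average stood for a gene. A model with 1 mean per group was fitted in limma 3.58.1 (R 4.3.3), leaving 8 residual degrees of freedom. P-values were adjusted by the Benjamini-Hochberg method within each of 7 comparisons. The model was tested on simulated data. An exact test of 3 against 3 arrays cannot go below p = 0.1. Arrays with the same replicate number were not treated as pairs. Their deviations correlated weakly (18 pairs, median 0.13, from -0.03 to 0.33), though more than those of arrays with different numbers (median -0.09, from -0.335 to 0.18).

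Named genes were the 10 members, at most 8 called genes of the growth list per comparison by size, and the 8 genes most like Gap43. The members and lists were chosen with earlier results of these data known. Promoters came from a RefSeq table, and the signals have no build of their own. Precision is limited by the number of arrays.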

Additional observations from a re-analysis of the deposited data

How the results depend on the processing

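The alternatives were other pseudocounts, filters, scalings and probe set rules, an intensity trend, a replicate block and leaving out each array. The 7 called member results kept their direction in 84 fits without 1 array, 57 of them past the threshold, and in 70 other fits, 61 of them past it. Member calls for OBX in Lip-O mice went from 0 to 1 with the mean of probe sets, the replicate block or the intensity trend, and ran from 0 to 2 without 1 array. For OBX in Lip-C mice they went from 2 to 1 with no filter (Tubb3 at an adjusted p of 0.0534) and to 4 with the replicate block (Gap43, Stmn1, Dcx and Tubb3), and ran from 0 to 3 without 1 array. For OBX over both treatments they went from 5 to 3 with the mean of probe sets, to 6 with the 60th percentile filter or the replicate block (Gap43 gained, adjusted p = 0.02078 with the block) and to 7 with the intensity trend (Gap43 and Stmn4 gained). Gng8 lost its call with pseudocount 1 (adjusted p = 0.0523), no filter (0.07656), array medians set equal (0.07175), the mean of probe sets (0.05011) and every probe set tested (0.05926). The counts ran from 2 to 6 without 1 array. The replicate numbers did not pair the arrays by the rule used (10 of 18 pairs correlated above 0.1, and 9 of 12 arrays correlated best with their own number).

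Counts over all genes moved more. OBX in Lip-O mice gave 2676 genes and 4890 probe sets when every probe set was tested (1403 to 2793 genes without 1 array). OBX in Lip-C mice gave 2615 genes and 1736 with no filter (838 to 3030 without 1 array). Lip-C in sham mice gave 286 genes, 56 with no filter, 548 with a filter at the 60th percentile, 591 with an intensity trend and 1449 by probe set (17 to 314 without 1 array). Lip-C in OBX mice gave 47 genes, 72 with the stricter filter and 99 with the trend (7 to 76 without 1 array). The interaction gave 0 genes, 1 with no filter, 85 with the stricter filter, 66 with the trend and 10 by probe set (0 to 155 without 1 array). OBX over both treatments gave 4459 genes and 7499 probe sets (3466 to 4679 without 1 array). Lip-C over both operations gave 217 genes, 106 with no filter and 618 by probe set (84 to 258 without 1 array). The causes of these shifts were not tested.

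Among 63 member results that were not called, 36 values without 1 array and 14 in other settings changed sign. With array medians set equal, Crmp1 for OBX in Lip-O mice was -0.007, Gap43 for Lip-C in OBX mice -0.010 and Dpysl5 for OBX over both treatments -0.018. With quantile normalization, Dcx for Lip-C in OBX mice was 0.009, Stmn1 in the interaction -0.014 and Stmn2 for Lip-C over both operations 0.004. With the mean of probe sets, Stmn2 was 0.043 for OBX in Lip-C mice, -0.075 for Lip-C in sham mice and 0.006 in the interaction. Dcx went from 0.295 to -0.003 for Lip-C in sham mice and from -0.295 to 0.121 in the interaction, and was 0.119 for Lip-C in OBX mice. Dpysl3 went from -0.079 to 0.323 in the interaction, and Dpysl5 was -0.148 for OBX over both treatments.

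Without 1 array, signs also changed for OBX in Crmp1 in Lip-O mice (-0.063 to 0.097), Stmn2 in Lip-C mice (-0.167 to 0.043) and, over both treatments, Dpysl5 (-0.049 to 0.132) and Stmn2 (-0.009 to 0.096). For Lip-C they changed in sham mice for Tubb3 (-0.060 to 0.081), in OBX mice for Gap43 (-0.198 to 0.165), Crmp1 (-0.273 to 0.066), Dcx (-0.043 to 0.083) and Tubb3 (-0.325 to 0.045), and over both operations for Gap43 (-0.171 to 0.011), Stmn2 (-0.070 to 0.035) and Tubb3 (-0.150 to 0.035). In the interaction they changed for Gap43 (-0.055 to 0.308), Gng8 (-0.207 to 0.071), Dpysl3 (-0.212 to 0.028), Stmn4 (-0.240 to 0.085) and Tubb3 (-0.350 to 0.020).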
